A study of Mus musculus with 8 samples.

Results

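Regions of open chromatin that were missing only with Ezh2-Y726D were examined in sorted mouse retinal ganglion cells (RGCs), the neurons whose axons form the optic nerve. Open chromatin was mapped by ATAC-Seq, in which a transposase cuts DNA that is not packed into nucleosomes and marks it for sequencing, and a peak is a stretch where such cuts pile up. Peaks of all 8 samples on chromosomes 1 to 19 were merged where they shared at least 1 bp. A merged region was taken as a member when all 3 GFP samples and all 3 Ezh2 samples had a peak in it and neither Ezh2-Y726D sample did. This left 6791 members out of 186387 merged regions. The presence and absence of peaks chose the members, so the contrast between Ezh2-Y726D and the other groups is described here without a test.

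All animals were adult C57BL/6J mice with a crushed optic nerve. AAV2 carrying GFP (the control, 3 samples), Ezh2 (3 samples) or Ezh2-Y726D (2 samples) was injected into the vitreous body, the nerve was crushed 2 weeks later, and 50000 cells per sample were sorted 3 days after the crush. Endogenous Ezh2 was intact in every group, so both Ezh2 viruses added to it. AAV2 also enters retinal cells other than RGCs, and cells were sorted as alive and positive for CD90.2, the product of Thy1, which RGCs carry on their surface and which mouse T cells carry too. The labels do not say whether replicates came from separate animals, so p-values measure the spread between these samples, which may be technical.

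Ezh2 is the catalytic subunit of Polycomb repressive complex 2 (PRC2), which methylates lysine 27 of histone H3 and so helps keep genes silent. In Ezh2-Y726D a tyrosine of the catalytic domain is replaced by an aspartic acid, and the enzyme no longer methylates. Open regions away from gene starts are often enhancers, and the set that is open differs from one cell type to the next. In leukocytes many of them hold binding sequences of the ETS family (which includes PU.1, a leader of the myeloid and B lineages) and of the RUNX family.

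The members at gene starts included promoters of leukocyte genes, and 6 of these are printed to show what such a member holds. Each is the strongest promoter at hand in a member for its gene list (the lists are described with their counts). Each also lies wholly inside that member. No promoter at hand overlapped the member at an end of Itgal, which was stronger than the Dock10 member. The sequences are from RefSeq on build GRCm38.p6, from 250 bases before to 50 after the gene start, and read 5′ to 3′ on the strand of the gene. Capitals mark the letters CAGGAAG (ETS) or GAGGAAG (PU.1) on either strand. Lat is a scaffold of T cell receptor signaling, Ctla2b encodes a protease inhibitor of activated T cells, Il12rb2 a chain of the IL-12 receptor, C1qb a chain of complement C1q made by microglia and macrophages, Dock10 an activator of small GTPases in lymphocytes, and Pou2af1 a coactivator of B cells.
Lat promoter, chr7:126369519-126369818, minus strand: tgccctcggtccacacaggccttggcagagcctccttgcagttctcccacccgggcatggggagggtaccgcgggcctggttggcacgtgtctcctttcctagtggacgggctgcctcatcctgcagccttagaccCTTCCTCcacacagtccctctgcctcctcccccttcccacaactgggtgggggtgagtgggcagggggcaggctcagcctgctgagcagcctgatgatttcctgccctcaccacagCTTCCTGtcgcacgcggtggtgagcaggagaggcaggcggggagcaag
Ctla2b promoter, chr13:60897398-60897697, minus strand: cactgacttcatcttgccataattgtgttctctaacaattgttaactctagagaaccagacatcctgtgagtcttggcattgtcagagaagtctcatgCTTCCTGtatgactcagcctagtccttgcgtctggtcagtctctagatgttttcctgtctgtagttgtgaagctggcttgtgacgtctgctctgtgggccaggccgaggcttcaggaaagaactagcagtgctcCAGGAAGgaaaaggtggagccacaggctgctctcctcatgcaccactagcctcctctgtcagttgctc
Il12rb2 promoter, chr6:67376139-67376438, minus strand: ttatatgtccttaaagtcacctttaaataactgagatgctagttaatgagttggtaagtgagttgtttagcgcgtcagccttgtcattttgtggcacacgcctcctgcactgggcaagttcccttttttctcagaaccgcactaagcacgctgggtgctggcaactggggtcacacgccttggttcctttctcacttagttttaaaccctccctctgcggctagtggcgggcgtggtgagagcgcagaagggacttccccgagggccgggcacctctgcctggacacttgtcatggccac
C1qb promoter, chr4:136886151-136886450, minus strand: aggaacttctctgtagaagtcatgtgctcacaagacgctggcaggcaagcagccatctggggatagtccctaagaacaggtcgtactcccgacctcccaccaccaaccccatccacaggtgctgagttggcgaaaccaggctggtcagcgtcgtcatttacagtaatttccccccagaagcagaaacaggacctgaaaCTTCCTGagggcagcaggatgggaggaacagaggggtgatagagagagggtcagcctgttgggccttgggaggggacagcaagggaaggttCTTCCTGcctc
Dock10 promoter, chr1:80665303-80665602, minus strand: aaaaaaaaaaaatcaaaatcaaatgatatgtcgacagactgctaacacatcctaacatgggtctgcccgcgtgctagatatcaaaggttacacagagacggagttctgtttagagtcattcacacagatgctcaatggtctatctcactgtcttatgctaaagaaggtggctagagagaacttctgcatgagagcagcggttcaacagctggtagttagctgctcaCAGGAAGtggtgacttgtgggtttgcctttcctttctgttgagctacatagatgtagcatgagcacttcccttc
Pou2af1 promoter, chr9:51213440-51213739, plus strand: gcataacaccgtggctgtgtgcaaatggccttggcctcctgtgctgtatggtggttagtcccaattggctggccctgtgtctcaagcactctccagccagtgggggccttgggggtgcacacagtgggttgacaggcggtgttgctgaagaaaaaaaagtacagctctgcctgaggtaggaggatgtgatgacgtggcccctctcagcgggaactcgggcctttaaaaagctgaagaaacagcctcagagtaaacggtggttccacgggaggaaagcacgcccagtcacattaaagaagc
The Lat window held 1 ETS and 1 PU.1 match, Ctla2b and C1qb held 2 ETS matches each, and Dock10 held 1 ETS match. The Il12rb2 and Pou2af1 windows held neither set of letters. The Dock10 window is at an annotated start inside the gene, more than 1 kb from either gene end, and a peak at an end of Dock10 was present in both Ezh2-Y726D lists.

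The peak lists held between 112939 and 135895 peaks, with 124666 and 128728 in the Ezh2-Y726D samples, so these samples did not have the shortest lists. Median deposited folds (pileup at the summit over the local background of the same library) lay between 4.58 and 5.09 in all 8 lists, at 5.08 and 5.04 in the Ezh2-Y726D lists. Read numbers are not part of the lists, so the depth behind a missing peak is unknown. The label of the cells was checked on 20 RGC markers by peaks near a gene end (1 kb or less). Such peaks were present for 18, 18 and 18 of the markers in the GFP samples, 19, 19 and 20 in the Ezh2 samples and 20 and 19 in the Ezh2-Y726D samples, and Rbpms, Pou4f1, Pou4f2, Pou4f3, Slc17a6 and Thy1 had one in all 8.

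The rule was strict in both directions. A peak was found in all 6 GFP and Ezh2 lists in 78963 regions, of which 68278 were also in both Ezh2-Y726D lists and 3894 in 1 of them. By the mirrored rules, 2085 regions were missing only with Ezh2 and 934 only with GFP. Ezh2-Y726D had 2 samples and the other groups 3, so absence from all of its lists was the easier condition to meet. Without Ezh2-Y726D replicate 1 the rule gave 8251 members and without replicate 2 it gave 9225. Members made up between 7.65% and 10.2% of the regions of the 6 lists on each chromosome.

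Most members were of moderate strength. Strength was read as the percentile of the region's fold among all peaks of the same list. The median member stood at the 41.3, 39.0 and 49.8 percentile in GFP replicates 1, 2 and 3 and at the 58.9, 55.6 and 58.1 percentile in Ezh2 replicates 1, 2 and 3. All 3 Ezh2 samples thus lay above all 3 GFP samples, and all 6 lay below the median of the regions of the 6 lists, which stood between 63.6 and 68.9. The median fold of members was 4.30, 4.51 and 4.72 in GFP and 5.44, 5.08 and 5.01 in Ezh2.

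**Figure D1:**
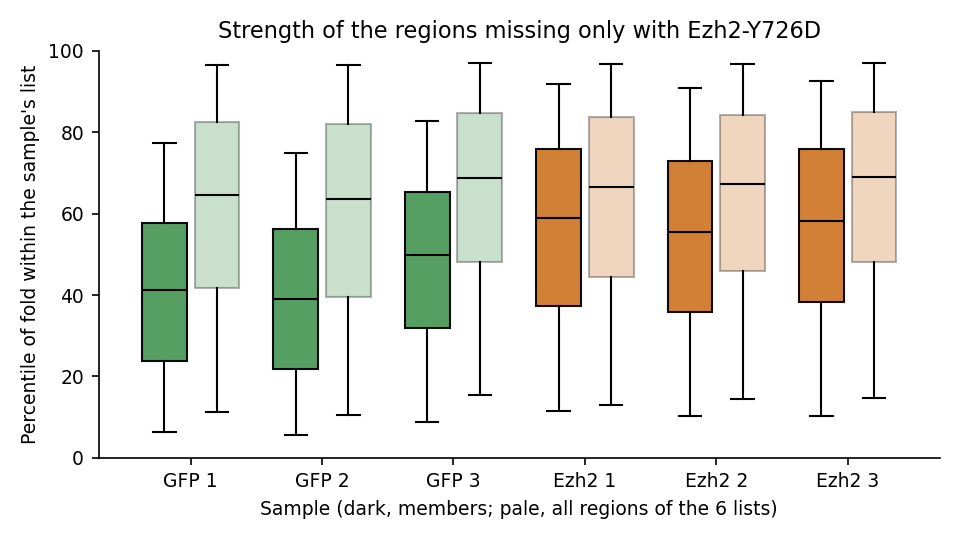
Percentile of each region's fold within its own peak list, for the 3 GFP samples (green) and 3 Ezh2 samples (orange). Boxes span the quartiles with the median as a line and whiskers reach the 5th and 95th percentiles. Dark boxes are the 6791 members and pale boxes all 78963 regions with a peak in the 6 lists. The dark boxes lie lower than the pale ones in each sample and higher in Ezh2 than in GFP.

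Weak peaks did not make up the whole set. Of the 6791 members, 3327 had a mean percentile over 50 across the 6 lists, 652 (9.60%) over 75 and 53 over 90. In 877 members (12.9%) the fold exceeded the median of both Ezh2-Y726D lists in every GFP and Ezh2 sample. Among all regions of the 6 lists, members were 13.6% of those up to the 25 percentile, 14.8% between 25 and 50, 9.72% between 50 and 75, 3.57% between 75 and 90 and 0.493% above 90. The share of members was thus smaller among strong regions than among weak ones.

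The strongest member of all lay between genes on chromosome 13 (17975596 to 17976469), 10170 bp from Yae1d1. Its fold was 10.1, 12.2 and 12.9 in GFP and 15.3, 13.4 and 12.8 in Ezh2, which puts it at a mean percentile of 97.7. The next, on chromosome 2 (62440866 to 62441687), lay 28550 bp from Dpp4, which encodes the T cell surface peptidase CD26. Its fold was 10.4, 9.50 and 11.8 in GFP and 14.9, 13.7 and 14.7 in Ezh2. By fold the groups overlapped in the former and did not in the latter. By percentile within the list they overlapped in neither. The former stood at 93.9, 96.5 and 98.5 in GFP and 99.6, 98.9 and 98.9 in Ezh2. Another of the 20 strongest lay inside Entpd1 (CD39, an ectonucleotidase of regulatory T cells and microglia). Others lay inside Pdcd1lg2 (PD-L2, an inhibitory ligand on antigen-presenting cells) and at Ctla2b. Folds in these ranged from 9.22 to 12.5, 9.22 to 12.1 and 9.57 to 10.8. The rest that overlapped a gene lay in Adgrv1, Baz1a and Rab8a, at mean percentiles of 94.2, 93.2 and 92.8. Of these 20, 14 carried the name of a gene only because it was the nearest protein-coding gene. The farthest was Foxo1, at 204753 bp. Besides Yae1d1, Dpp4 and Foxo1 these names were Atxn1l, Tuba1c, Reep3, Tmem154, Syce1l, Hdhd5, Gm4606, Nfe2l2, Ptger4, Slfn3 and Ubald2.

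The genes around the members were grouped by lists of markers and pathways. A gene was counted when a member overlapped it or lay within 1 kb, which held for 2690 of 20661 protein-coding genes (13.02%). Over the 8 leukocyte lists it held for 83 of 153 genes (54.2%), and over 6 lists of retinal neurons, Müller glia and endothelium for 19 of 113 (16.8%). Of the 398 regions of the 6 lists in or near the leukocyte genes, 167 were members (42.0%), against 7.44% for protein-coding genes as a whole and 5.77% for the retinal and endothelial lists. These 167 regions were 2.46% of all members, so most members lay elsewhere. For 35 of the 83 leukocyte genes no region was kept in all 8 lists, and 48 had both members and kept regions.

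**Figure D2:**
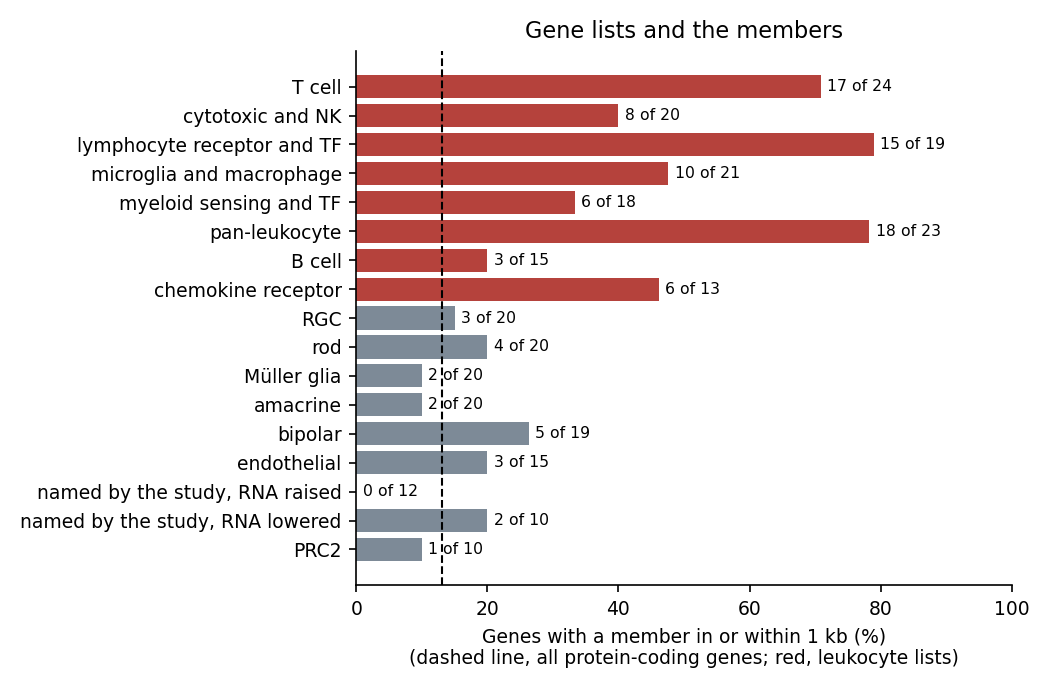
Share of the genes in each list with a member in or within 1 kb, in percent, with counts at the bars. Red bars are the 8 leukocyte lists, grey bars the other lists, and the dashed line the 13.02% of all protein-coding genes. The red bars run from 20.0% (B cell) to 78.9% (lymphocyte receptors and transcription factors), and the grey bars from 0 to 26.3%.

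T cell genes had a member at 17 of 24. At Lat the member, which also overlapped the gene Spns1, spanned the promoter (chromosome 7, 126369054 to 126370130). Its fold was 6.28, 6.87 and 9.25 in GFP and 9.88, 10.9 and 8.06 in Ezh2. The Cd3g member, at a gene encoding a chain of the T cell receptor complex, had folds of 5.93, 7.57 and 5.67 in GFP and 6.14, 5.45 and 5.87 in Ezh2. The Cd8a member, at the coreceptor gene of cytotoxic T cells, had folds of 5.65, 6.73 and 5.57 in GFP and 6.57, 6.32 and 4.96 in Ezh2. GFP and Ezh2 samples overlapped in all 3 of these regions. Cd28, the costimulatory receptor, held 3 members among 4 regions, and Lcp2, the adaptor SLP-76, held 4 among 6.

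Genes of cytotoxic and natural killer (NK) lymphocytes held fewer regions, but most of them were members, 10 of 17. The Ctla2b member had folds of 9.65, 10.4 and 9.57 in GFP and 10.8, 9.58 and 9.81 in Ezh2. Ctla2a, its neighbour and close paralog, had folds of 5.65, 7.05 and 7.86 in GFP and 9.45, 9.83 and 10.0 in Ezh2. Reads of paralogs can be hard to place, so these 2 regions are less certain than single-copy ones. The Ezh2 samples lay above all GFP samples at Ctla2a and mixed with them at Ctla2b. At Gzmb (granzyme B) folds were 7.06, 5.70 and 8.65 in GFP and 10.3, 9.02 and 8.43 in Ezh2. At Prf1 (perforin) they were 5.18, 5.97 and 6.97 in GFP and 8.73, 7.62 and 7.57 in Ezh2. At Fasl, the ligand that triggers death through Fas, they were 8.11, 7.14 and 6.80 in GFP and 8.03, 7.01 and 7.75 in Ezh2. By fold, perforin alone of these 3 genes had no overlap between the groups. By percentile within the list Gzmb had none either, with 88.4 the highest in GFP and 89.1 the lowest in Ezh2.

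Receptors and transcription factors of lymphocytes had a member at 15 of 19 genes. The promoter member of Il12rb2 ranked highest, with folds of 10.1, 10.1 and 10.3 in GFP and 9.57, 8.86 and 8.61 in Ezh2. Every GFP sample lay above every Ezh2 sample, and the difference did not pass the test (-0.29 ± 0.16 SE, limma adjusted p = 0.365). Il12rb2 held another member, which was called higher with Ezh2. At Il2ra, the high-affinity chain of the IL-2 receptor, folds were 7.30, 5.78 and 6.08 in GFP and 7.49, 7.18 and 6.47 in Ezh2. Il18r1 and Il18rap, neighbouring genes for the IL-18 receptor, held 5 members among 6 regions and 1 among 1. Stat4, the factor that acts downstream of IL-12, held more members than any other gene of the leukocyte lists, 7 among 10 regions.

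**Figure D3:**
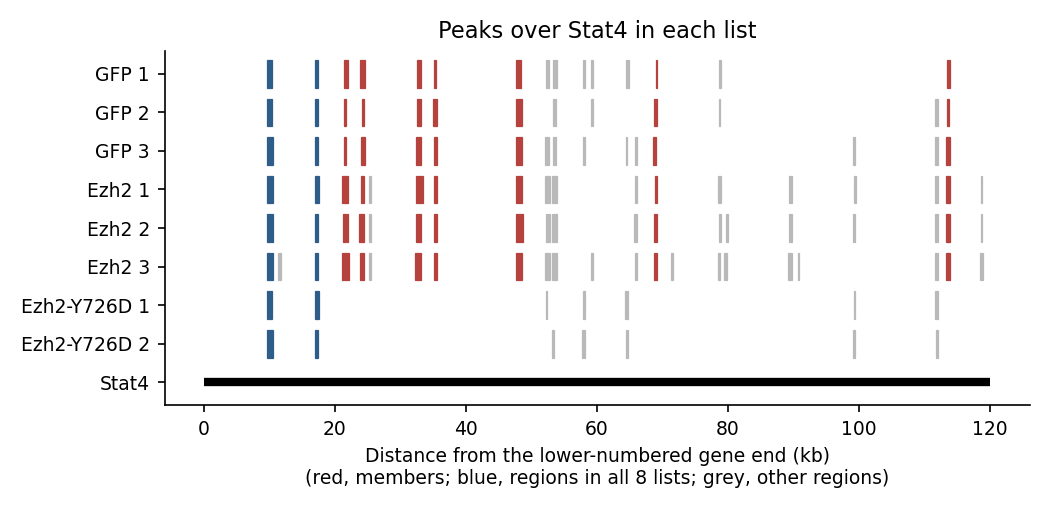
Peaks over Stat4 in each of the 8 lists, by distance in kb from the lower-numbered end of the gene. Red marks the 7 members, blue the 2 regions kept in all 8 lists and grey regions with other patterns. The red columns stop at the Ezh2-Y726D rows, while the blue columns run through all rows.

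Members and kept regions lay side by side in Stat4. The strongest member, with a mean percentile of 88.1, had percentiles of 87.8, 74.9 and 87.0 in GFP and 93.6, 93.6 and 91.6 in Ezh2. The kept regions had mean percentiles of 78.9 and 58.8, so the member was the stronger. None of the 7 members passed the test of Ezh2 against GFP, and their median difference on the normal-score scale was -0.15.

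Microglia and macrophage genes had a member at 10 of 21 genes. At C1qb folds were 6.36, 4.88 and 6.13 in GFP and 7.99, 5.95 and 7.20 in Ezh2. At Cx3cr1, the fractalkine receptor of microglia, they were 7.21, 3.94 and 5.29 in GFP and 5.32, 6.14 and 7.40 in Ezh2. At Tyrobp, the adaptor of Trem2, they were 4.25, 5.95 and 4.35 in GFP and 4.65, 4.07 and 4.83 in Ezh2. The groups overlapped at all 3 genes. Myeloid sensing and transcription factor genes had a member at 6 of 18, among them Spi1, which encodes PU.1, Tlr9, the receptor of unmethylated DNA, and Nlrp3, the inflammasome sensor. The members shown at the ends of these 3 genes were weak, at mean percentiles of 24.9, 34.5 and 33.3. Spi1 held another member, at a mean percentile of 58.4.

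Pan-leukocyte genes, active across blood cells, had a member at 18 of 23. Rac2, a small GTPase of blood cells, held 3 members and no other region of the 6 lists, and so did Cd53 (a tetraspanin) and Ptpn6 (the phosphatase SHP-1). At the end of Rac2 folds were 6.08, 6.33 and 6.13 in GFP and 6.51, 7.04 and 5.60 in Ezh2, without separation of the groups. Chemokine receptor genes had a member at 6 of 13, including Cxcr5, Ccr7, Cxcr6 and Ccr1. Their strongest end regions had mean percentiles of 73.7, 66.4, 60.1 and 58.1, and the Cxcr6 region also overlapped the gene Fyco1. B cell genes had a member at 3 of 15, which were Pou2af1, Bank1 and Blnk.

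Peaks at gene ends were also counted sample by sample, whether or not they belonged to a member. A member holds no Ezh2-Y726D peak by the rule, so these counts and sums are a description and no separate support. They take either end of a gene, so some genes with a member at an end still had an end peak with Ezh2-Y726D. Cd3e, Spi1 and Tlr9 were among these. T cell markers had one at 20, 20 and 22 of 24 genes in the GFP samples, at 23 genes in each Ezh2 sample and at 11 and 9 with Ezh2-Y726D. Cytotoxic and NK genes had one at 11, 12 and 14 of 20 with GFP, at 17, 19 and 19 with Ezh2 and at 5 and 6 with Ezh2-Y726D. Microglia and macrophage markers had one at 15, 13 and 18 of 21 with GFP, at 18, 16 and 17 with Ezh2 and at 6 and 6 with Ezh2-Y726D. The Ezh2-Y726D samples were lowest in these 3 lists. The strongest folds at the gene ends, summed over a list, ranged from 109 to 126 (GFP), 123 to 141 (Ezh2) and 47.3 to 58.1 (Ezh2-Y726D) for T cells. For cytotoxic and NK genes they ranged from 68.7 to 88.6, 111 to 117 and 29.0 to 32.2, for microglia and macrophages from 68.6 to 88.8, 86.3 to 101 and 45.6 to 51.0, and for pan-leukocyte genes from 101 to 111, 112 to 116 and 43.7 to 61.0. The gap was smaller for myeloid sensing and transcription factor genes, at 94.3 to 102, 100 to 105 and 83.7 to 87.9. Rod genes, outside the leukocyte lists, summed to 94.1 to 104 and 92.0 to 99.8, with 69.9 in Ezh2-Y726D replicate 1 and 93.5 in replicate 2.

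Several markers that define a leukocyte had an end peak in all 6 GFP and Ezh2 lists and in neither Ezh2-Y726D list. They were Ptprc (CD45), Cd3g, Cd8a, Cd8b1, Zap70, Nkg7, Gzmb, Prf1, Cx3cr1, C1qb and Cd68, chosen for mention after their values were seen. RGC markers summed to 98.0 to 111 with GFP, 110 to 113 with Ezh2 and 112 to 114 with Ezh2-Y726D. Fewer leukocytes in the sorted pool and fewer open sites per leukocyte cannot be told apart in these bulk samples. The part of the leukocyte markers in the members as a whole was not tested.

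RGC genes had a member at 3 of 20 genes, against the 13.02% of all protein-coding genes, and at the end of none. These members lay inside Stmn2 (a neuronal microtubule regulator), Slc17a6 (the vesicular glutamate transporter of RGCs) and Rbpms (an RNA-binding marker of RGCs), at mean percentiles of 44.4, 27.7 and 25.8. Of the 55 regions of the 6 lists at RGC genes, 3 were members (5.45%). Rod genes had a member at 4 of 20, bipolar genes at 5 of 19, Müller glia genes at 2 of 20, amacrine genes at 2 of 20 and endothelial genes at 3 of 15. Isl2, which encodes a transcription factor of RGCs with contralateral projections and was picked out after its values were seen, held 3 members and no other region of the 6 lists. They were weak, with a highest mean percentile of 19.8.

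Genes of the Polycomb machinery and those the study discusses in RNA were read against the same 13.02%. Of 10 PRC2 genes 1 had a member (10.0%), which was Jarid2, an accessory subunit that helps recruit the complex, with folds of 4.68, 5.84 and 3.47 in GFP and 7.71, 7.32 and 6.57 in Ezh2. The Ezh2 samples all lay above the GFP samples there, and the difference did not pass the test (1.13 ± 0.33 SE, limma adjusted p = 0.0905). Ezh2 itself held 1 member on chromosome 6 (47560890 to 47561895), outside the list, with folds of 3.86, 3.97 and 4.09 in GFP and 4.96, 4.87 and 5.16 in Ezh2. Its difference was 0.62 ± 0.16 (SE, limma adjusted p = 0.0635), the groups did not overlap, and vector DNA carrying Ezh2 sequence was not examined. Of the 12 genes listed as raised by Ezh2 in RNA, 0 had a member, and of 10 listed as lowered 2 did (20.0%), Tnr (tenascin-R) and Epha7 (an ephrin receptor). The study chose these genes on other libraries of the same experiment.

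Genes on chromosome 18 were left out when genes were ordered by their number of members. Among the others, the genes with the most members were long ones with many regions. Akap13, an anchoring protein for protein kinase A, held 12 among 24 regions, and Thada held 12 among 22. Rftn1, which encodes the lymphocyte lipid-raft protein raftlin, held 10 among 18. Foxp1, a transcription factor of B cells and neurons, held 9 among 24, and Cdk6, a cell cycle kinase of blood progenitors, 8 among 19. Wwox, Arhgef3, Atp10a, Rapgef1, Tg, Tiam1 and Atxn1 held 6 to 8 each. The lncRNA 4930469K13Rik held 6, and it overlaps Lcp2. The immunoglobulin heavy chain locus Igh, annotated as a single entry of 2751 kb, held 11 among 16, and the other 5 were kept in all 8 lists.

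There were 713 protein-coding genes with at least 2 members, and 37 of them had no other region of the 6 lists. By number of members these 37 began with Cd200r3 (4), Havcr2 (4), Scimp (3) and Cd300lf (3). Cd200r3 is a receptor of the CD200 family on mast cells and basophils, Havcr2 encodes the T cell and myeloid checkpoint receptor TIM-3, Scimp is an adaptor of antigen-presenting cells and Cd300lf an inhibitory receptor of myeloid cells. Timd4, Slc7a7, Myo1f, Ccl4, Tnfsf14, Casp4, Cd48 and Cd33 were others of the 37, and so were Piwil2, Muc4 and Isl2, which are not known as leukocyte genes. These names follow the number of members and then strength, an order set after the values were seen.

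The members were then compared between Ezh2 and GFP, a contrast the rule did not use. Folds were ranked within each list over the 78963 regions and turned into normal scores, a scale in which 1 unit is 1 SD of all regions, and the groups were compared with limma, with a call at a Benjamini-Hochberg adjusted p under 0.05 over all regions. Of the 6791 members, 973 were called higher with Ezh2 (14.3%) and 73 lower (1.07%). Over all regions tested, 2.42% were called higher and 2.78% lower. Members were 50.9% of all regions called higher and 3.33% of those called lower. Their median difference was 0.34 (quartiles -0.04 and 0.73), against -0.0044 for all regions tested, and 4949 members (72.9%) had a positive difference. All Ezh2 scores exceeded all GFP scores in 2293 members (33.8%, against 12.3% of all regions) and lay below them in 324 (4.77%, against 13.1%). The 68278 regions kept in all 8 lists were called higher in 1.13% and lower in 2.92%. Among the 3894 regions with a peak in 1 Ezh2-Y726D list, 4.24% were called higher and 3.29% lower. Without any 1 of the 6 samples the members called higher numbered 344 (without Ezh2 replicate 3), 391 (without GFP replicate 2), 395 (without Ezh2 replicate 1), 476 (without GFP replicate 1), 534 (without Ezh2 replicate 2) or 541 (without GFP replicate 3), and those called lower 25 to 57.

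The share called higher differed with strength. Between the 75 and 90 percentile 172 of 599 members (28.7%) were called higher and 0 lower, while 0.647% of kept regions of the same strength were higher. Above the 90 percentile 14 of 53 members (26.4%) were higher, against 0.225% of kept regions. Up to the 25 percentile 44 of 801 members (5.49%) were higher, against 1.27% of kept regions. The share called higher was 13.1% at gene ends, 14.0% inside genes and 15.4% between genes, with median differences of 0.36, 0.34 and 0.33.

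**Figure D4:**
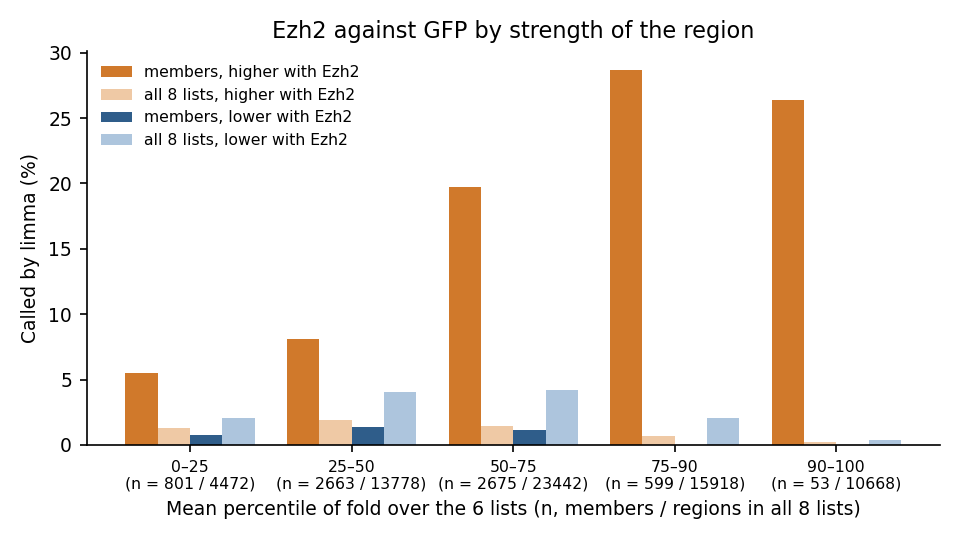
Percentage of regions called higher (orange) or lower (blue) with Ezh2 than with GFP by limma, in bins of the mean percentile of fold over the 6 lists. Dark bars are members and pale bars regions kept in all 8 lists, with both numbers of regions under each bin. The dark orange bars rise from 5.49% to 28.7% and 26.4%, while the pale orange bars stay between 0.225% and 1.87%.

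Members on chromosome 18 were left out when the largest rises and falls were picked. Among the others, the largest rise lay 26101 bp from Tet2, which encodes a 5-methylcytosine oxidase active in blood cells (chromosome 3, 133436785 to 133437575). Its fold was 3.30, 3.80 and 5.07 in GFP and 10.5, 11.5 and 11.97 in Ezh2, and the difference was 2.66 ± 0.29 (SE, limma adjusted p = 0.00801). The member nearest Fam3c had folds of 4.24, 4.07 and 4.64 in GFP and 11.5, 11.7 and 11.99 in Ezh2. The one nearest Ikzf2, the gene of the regulatory T cell factor Helios, had folds of 3.06, 3.26 and 4.22 in GFP and 7.08, 9.69 and 9.16 in Ezh2. Those nearest Cblb, an E3 ligase that restrains T cells, and Cnot2 moved by 2.64 and 2.32. In all 5 the lowest Ezh2 value exceeded the highest GFP value, all 5 lay between genes, and the one named for Cblb was 355638 bp away from it.

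The largest fall off chromosome 18 lay inside Apobec3, an antiviral cytidine deaminase gene. Its folds were 5.21, 8.33 and 6.83 in GFP and 3.06, 3.53 and 3.04 in Ezh2. The score fell by 1.99 ± 0.26 (SE, limma adjusted p = 0.00950). The member inside Ccdc180 had folds of 7.85, 7.44 and 7.11 in GFP and 3.91, 3.23 and 3.71 in Ezh2, and the one nearest Diaph3, a formin of the actin cytoskeleton, 10.4, 8.95 and 8.23 against 4.88, 4.62 and 3.92. With those at Ccdc77 and near 1700122O11Rik these were the 5 largest falls off chromosome 18, each without overlap of the groups.

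Members at leukocyte genes were then set beside the whole set. Of these 167, 11 were called higher with Ezh2 (6.59%) and 0 lower, with a median difference of 0.20, against 14.3% and 0.34 for all members. T cell members had 2 of 33 called higher and a median of -0.03. The B cell list had 1 of 7 members called higher (14.3%) and a median of 0.38. The called member, at one end of Pou2af1 (chromosome 9, 51238776 to 51239503), had folds of 4.95, 4.61 and 4.64 in GFP and 9.53, 8.54 and 9.16 in Ezh2, a difference of 1.55 ± 0.18 (SE, limma adjusted p = 0.00801). The members at the ends of Bank1 and Blnk differed by 0.38 ± 0.35 and -0.16 ± 0.22 (SE, limma adjusted p = 0.601 and 0.756). Igh is not in the list, and its differences from the listed genes were not tested. Of its 11 members, 8 were called higher with Ezh2 and 0 lower, with a median difference of 1.47. The Igh member on chromosome 12 from 115622791 to 115623551 was at the 26.6, 21.8 and 34.5 percentile in GFP and the 92.5, 94.3 and 87.4 percentile in Ezh2. All 8 lay within 1 kb of the end of an annotated gene, and the 3 Igh members not called did not. Variable segments of Igh are near-identical copies, so reads may be shared among them. Outside the blood lineages, the member inside Sag, the rod arrestin gene, rose from folds of 3.69, 3.46 and 3.68 in GFP to 6.74, 6.74 and 6.30 in Ezh2 (difference 1.59 ± 0.17 SE, limma adjusted p = 0.00801).

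Members were narrow and lay away from gene ends. Their median width was 679 bp, against 896 bp for all regions of the 6 lists. Within 1 kb of a gene end lay 880 members (12.96%), against 24.5% of all regions of the 6 lists and 26.3% of those kept in all 8. Another 53.8% lay inside genes and 33.2% between genes, against 49.1% and 26.4%. Regions missing only with Ezh2 and those missing only with GFP were at gene ends in 8.87% and 7.17%, with median widths of 574 and 527 bp, so members of the mirrored rules were also narrow and distal. Across these sets of regions, median width and the share at gene ends were larger where the median strength was higher. Among members alone, median percentiles were 51.5 at gene ends, 47.1 inside genes and 52.3 between genes. The part of strength in width and position was not tested.

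Some members lay in groups. Another member lay within 10 kb of 1408 members (20.7%), while a member lay within 10 kb of 7.82% of the kept regions. Kept regions near a member were compared by rank as a description, since the rule used this contrast. Of the 5336 kept regions within 10 kb, 5.19% ranked lower with Ezh2-Y726D than with GFP and 5.81% higher, against 4.7% and 3.58% of all kept regions. Against Ezh2, 7.44% ranked lower and 13.7% higher, where all kept regions gave 7.09% and 7.01%. These comparisons share samples. The excess was on the higher side when regions were ranked by fold. With ranks by −log10 p it lay on the lower side, at 9.45% lower and 2.77% higher than GFP, against 7.13% and 3.01% of all kept regions by these ranks, so no direction can be given for the neighbours.

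The sequence of the members could be read where a promoter window of RefSeq overlapped them. This was so for 365 promoters of 331 genes, of which 254 lay wholly inside a member and the others in part, and whole windows were read. They were poorer in GC, with a median of 49.7%, than the 15236 promoters that overlap regions kept in all 8 lists (61.3%) and all 31396 promoters (53.0%). They held a median of 5 CpG pairs in 300 bases, against 21 and 7. ETS letters (CAGGAAG) on either strand occurred in 123 of the 365 (33.7%), in 11.3% of kept promoters and in 13.4% of all. PU.1 letters (GAGGAAG) occurred in 99 (27.1%), against 12.7% and 13.4%, and RUNX letters (TGTGGTT) in 45 (12.3%), against 3.41% and 5.32%. At least 1 of these 3 was present in 206 promoters (56.4%), against 25.2% and 28.7%. In the 254 windows wholly inside a member it was present in 161 (63.4%), against 24.98% of the 13884 wholly inside a kept region, an alternative chosen after the results were seen.

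Other letters were spread differently. AP-1 letters (TGANTCA) were present in 16.4% of the member promoters, 4.86% of kept and 7.84% of all. KLF/SP letters (GGGCGGG), which are common in CpG-rich promoters, were present in 14.0%, 46.0% and 25.8%. Letters of the E-box of neural factors (CAGATG) were present in 23.0%, 11.7% and 17.2%. Homeobox letters (TAATTA), which many neural factors bind, were present in 3.84%, 2.47% and 5.27%, and OTX/CRX letters (GGATTA), which photoreceptor factors bind, in 6.85%, 5.53% and 7.06%. For these last 2 the member share lay between those of kept and of all promoters. It exceeded both for T-box, E-box (CAGCTG), octamer and GATA letters, with 21.6%, 16.1% and 16.3% for the E-box. For CTCF core letters it lay below both, at 9.32%, 16.6% and 10.7%. Base composition differed between these sets of promoters, and its part in the shares was not tested. A match of letters is no evidence of a bound factor.

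**Figure D5:**
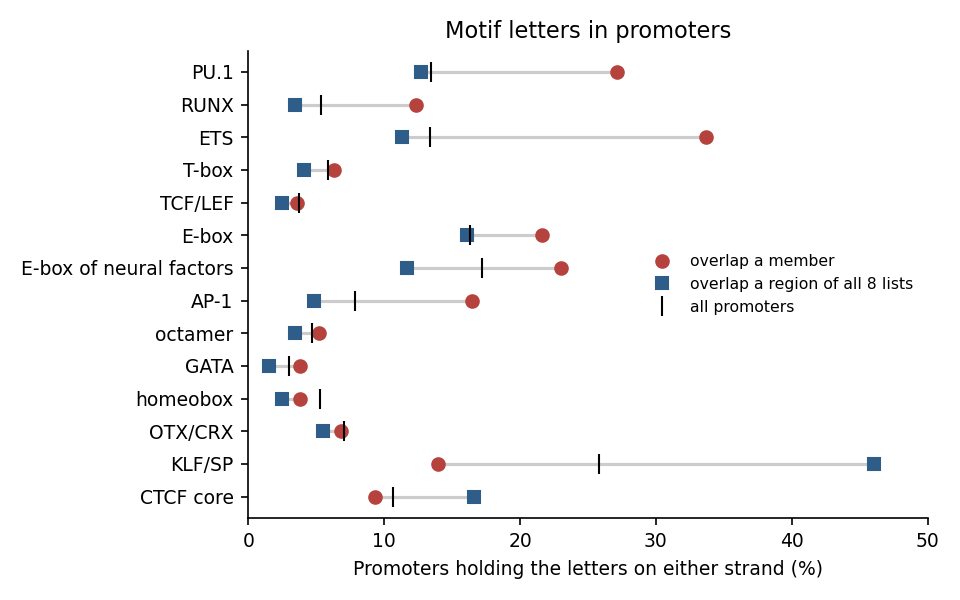
Percentage of promoter windows that hold each set of motif letters on either strand. Red circles are the 365 promoters that overlap a member, blue squares the 15236 that overlap regions kept in all 8 lists, and black ticks all 31396 promoters. For ETS, PU.1, RUNX, AP-1 and the E-box of neural factors the red circle lies above the square and the tick. It does so for T-box, E-box, octamer and GATA too. For KLF/SP and the CTCF core it lies below both, and for the rest between them.

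Of the 365 promoters, 46 belonged to 40 genes of the lists. The Il12rb2 promoter stood at a mean percentile of 91.7 for its region, Lat at 85.1, Dock10 at 74.3, C1qb at 70.4 and Pou2af1 at 65.0. These are the windows printed with their sequences.

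Some miRNA genes lay near members. Of 919 hairpins, 238 were within 1 kb of a region of the 6 lists and 15 within 1 kb of a member. Mir155, whose product acts in activated lymphocytes and macrophages, was 1 of the 15, chosen for mention after its values were seen. Its mature 5p strand from RefSeq is given with the seed (bases 2 to 8) in capitals.
mmu-miR-155-5p: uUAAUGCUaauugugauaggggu
The member lay next to it on chromosome 16 from 84712945 to 84713754. Another of the 15 was Mir10a, inside the Hoxb cluster, with a member from 96318150 to 96319347 on chromosome 11.

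At the edge of the rule, weak peaks decided membership. The members with the lowest −log10 q in any of the 6 lists were nearest Igfbp7, inside Fam169b and nearest Cebpa, with lowest values of 1.37, 1.41 and 1.57. The regions just outside were inside Ivns1abp, inside Sbk3 and nearest Krtcap2, whose single Ezh2-Y726D peaks had −log10 q of 1.47, 1.47 and 1.72. Over all members the median of the lowest −log10 q was 5.21. With peaks of −log10 q of at least 5 alone, 5291 regions met the rule, and 52.3% of the 6791 members overlapped one of them. Leukocyte genes with a member then numbered 81 of 153, against 83.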

How the data were processed

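ATAC-Seq peak lists of 8 samples (3 GFP, 3 Ezh2, 2 Ezh2-Y726D) were used as deposited, grouped by their titles. Per the labels the submitters' processing notes name cutadapt, Bowtie2, SAMtools, Picard, MACS2 and deepTools without versions, and build GRCm38. The authors called peaks per sample. The deposited fold is a ratio of summit pileup over local background. Significance was deposited by the peak caller as −log10 p-values and, after correction, as −log10 q-values. The deposited score was not used. Without counts, depth is unknown, and a list's rank order was compared in place of counts.

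Members, gene lists and tests were chosen with earlier results of these data known. Ranks of fold became normal scores, and limma 3.58.1 (R 4.3.3, lmFit and eBayes) compared groups, with Benjamini-Hochberg adjustment and a threshold of 0.05. Interval steps used Python 3.11.15. The limma step and the merge were tested on simulated data.

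Genes came from RefSeq (GRCm38.p6) without strand, so either gene end within 1 kb stood for the gene start of the design. Of the listed genes, 8 lie off chromosomes 1 to 19. Motifs were searched in promoter windows of 300 bases, which were at hand for the chromosomes used other than 18, since no genome sequence was used. A gene's name marks overlap or, failing that, the nearest protein-coding gene. Named were the Ezh2 member, the 20 strongest members, the 5 largest called rises and falls, the 15 genes with the most members, up to 4 genes per list, and the regions nearest the threshold. Any other gene was chosen after its values were seen. Chromosome 18 was left out when the largest rises and falls and the genes with the most members were picked. Replicate numbers did not pair samples (correlations of same-numbered deviations -0.00046, 0.033 and 0.045). Alternatives covered the ranking measure, thresholds, overlap, list length, distances, replicates left out and a replicate block.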

Additional observations from a re-analysis of the deposited data

How the results depend on the processing

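The rule gave 6736 members with lists of equal length, 6785 with −log10 q of at least 2, 5291 with at least 5 and 5415 when peaks had to cover 0.5 of the region, and 82.3%, 99.6%, 52.3% and 44.6% of the 6791 members overlapped one of these. Leaving out each replicate gave 7022 to 9225 members. The excess of members called higher with Ezh2 held under every alternative run, against 973 called higher and 73 lower. Ranking over all peaks of a list gave 567 and 28, the replicate block 570 and 45, and a mean percentile above 25 gave 635 and 46 among 5990 members. Leaving out 1 replicate gave 344 (without Ezh2 replicate 3) to 541 higher and 25 (without GFP replicate 2) to 57 lower, where background shares were 0.670% to 1.20% and 0.812% to 1.87%. Fewer samples enter those fits. The median difference of 0.34 became 0.51 with ranks by −log10 p and 0.45 with the percentile filter, and 0.30 to 0.38 with a replicate left out. Without a pairing in the labels the replicate block shares only a number between samples.

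Among the 5 largest rises, the 5 largest falls (both off chromosome 18) and the Ezh2 member, no direction turned in 137 refits. Of these, 8 lost their call, all at Cnot2 or Ccdc77. Another 2 gained one, both at the Ezh2 member (limma adjusted p = 0.0187 with ranks by −log10 p and 0.0475 with the percentile filter). For kept regions within 10 kb, the median difference of 0.07 between Ezh2-Y726D and GFP became -0.0041 within 50 kb, 0.0017 with ranks by −log10 p and 0.046 to 0.078 with a replicate left out. Against Ezh2, 0.10 became 0.0029, -0.0041 and 0.089 to 0.11. The cause was not tested. The titles number the Ezh2-Y726D samples 1 and 2 and the names of their peaks 2 and 3, so their replicate numbers are in doubt. A replicate block by the peak names, chosen after seeing the data, gave 0.07 and 0.11. Gene list totals of 83 and 19 became 91 and 19 within 3 kb, 81 and 13 at −log10 q of at least 5, and 85 and 19 with equal lists. The share of members at gene ends was 24.2% within 3 kb. It was 11.5 points below all regions of the 6 lists (members minus these, -11.5) and 13.4 points below those kept in all 8 (-13.4). The search in whole merged regions was not run, since it needs a genome. Unknown depth limits what the absence of a peak shows.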

Other observations

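The rule stops at chromosome 19. On chromosome X the same pattern of peaks was found in 63 of 1301 regions with a peak in all GFP and Ezh2 lists (4.84%). Was, which encodes the actin regulator of blood cells that is lost in Wiskott-Aldrich syndrome, held its single region there in this pattern, with a mean percentile of 70.4. Il2rg (the common cytokine receptor chain) and Cxcr3 (a chemokine receptor of activated T cells) had 1 region each in all GFP and Ezh2 lists, and Tlr7 (a receptor of RNA) had 2, of which 0 had the pattern. These regions entered none of the comparisons.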
